A study of Mus musculus with 6 samples.

Results

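The genes described here are 10 components of 2 linked routes of innate immune sensing, the Toll-like receptor and inflammasome genes Tlr2, Tlr4, Tlr7, Myd88, Nlrp3, Pycard, Casp1, Gsdmd, Il1b and Il18. They were chosen by name and matched by Entrez gene ID, and all 10 were found among the 18822 genes with values. RNA was sequenced from glomeruli, the capillary tufts through which blood is filtered, taken from C57BL/6J mice that all had diabetic kidney disease. One group of 3 libraries came from mice with a knockout of PR3 (proteinase 3, a neutrophil serine protease encoded by Prtn3), here PR3_KO, and the other group of 3 from wild-type mice, here WT. The sources used here do not give age, sex, the way diabetes was induced, the knockout allele or whether each library was 1 animal. A p-value therefore weighs the spread among these 6 libraries alone, and that spread may be technical. Without non-diabetic libraries in these groups, the values describe genotype within diabetic mice.

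Toll-like receptors bind microbial products and molecules released by damaged cells, and most of them signal through the adaptor protein MyD88 to NF-kappaB, which induces cytokine genes such as Il1b. The inflammasome is a cytosolic complex in which a sensor such as NLRP3 recruits the adaptor ASC, encoded by Pycard, and activates caspase-1. Caspase-1 then cleaves the precursors of the cytokines IL-1beta and IL-18, and gasdermin D, whose released fragment forms pores in the plasma membrane. Proteinase 3 can itself cleave both cytokine precursors outside this complex. In the kidney these genes are expressed in macrophages and other leukocytes, and several also in endothelium and tubular epithelium.

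Values are FPKM as deposited, fragment counts scaled to transcript length and to sequencing depth, so that levels of different genes can be set side by side per length. Fold changes are the difference PR3_KO minus WT in log2(FPKM + 1), which understates the change of low genes, and come from limma fitted to the 12388 genes that averaged 1 FPKM or more, with Benjamini-Hochberg adjustment over all of them and a threshold of 0.05. From the smallest steps of olfactory receptor genes, depth was estimated at 13300000 fragments in WT 1 and 15200000 in each other library, a rough figure that rests on 3 to 7 genes per library. Prtn3, the targeted gene on chromosome 10, was at 0.14, 0 and 0.07 FPKM in PR3_KO libraries 1, 2 and 3, against 0.46, 0.21 and 0.22 FPKM in WT libraries 1, 2 and 3, levels of a few fragments that make the check of the labels a weak one. Glomerular markers were present in every library: the summed FPKM of 10 podocyte markers was 359 to 571 in PR3_KO and 656 to 1050 in WT. Transcripts of the proximal tubule, the neighbouring nephron segment, were abundant too, with Kap at 40546.08 to 57589.99 FPKM in PR3_KO and 5247.64 to 18509.26 FPKM in WT. Over all tested genes 41.1% were called lower in PR3_KO and 11.7% higher, and the median fold change was -0.26. After median-of-ratios scaling, which equalises the typical gene between libraries, 22.3% were lower and 25.4% higher and the median was 0.03, so values under this scaling are given beside those as deposited.

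All 10 genes were lower in PR3_KO than in WT, with no overlap between the libraries of the 2 genotypes. Over the 15321 genes that averaged 0.1 FPKM or more, 46.2% showed such a separation toward lower values. The mean FPKM in PR3_KO was between 13.2% of the WT mean for Nlrp3 and 60.8% for Il18. Of the 9 genes past the expression filter, 9 fell and 0 rose (limma, adjusted p under 0.05), and their median fold change was -1.26, against -0.26 over all genes. With median-of-ratios scaling 8 of the 9 fell, against 22.3% of all genes, and Il18 did not pass, with a median of -0.99 against 0.03. The 95% interval of the fold change lay below the median of all genes for 8 of the 9, all but Il18. The share of all genes with such an interval was not counted, and 41.1% of them were called lower. Nlrp3, with a mean under 1 FPKM, was the gene without a limma test. In bulk tissue, fewer cells that express these genes and less of their RNA per cell cannot be told apart.

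**Figure D1:**
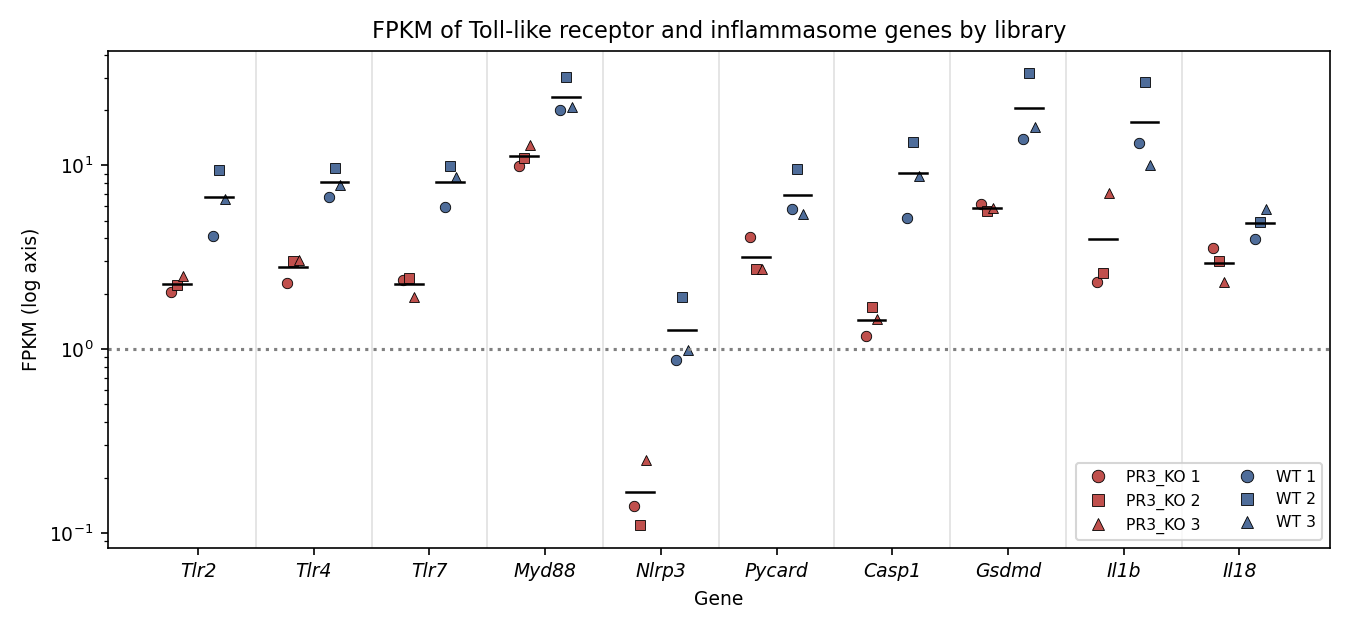
FPKM of the 10 genes (log axis), PR3_KO in red left of WT in blue, with a marker shape for each library number, black bars for means of n = 3 and a dotted line at the filter of 1 FPKM. For every gene the 3 PR3_KO points lie below the 3 WT points, and WT 2 is the highest WT library for 9 of the 10 genes.

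The 10 genes lie on 8 chromosomes and none on chromosome 10, where Prtn3 is. Since they were lower together, their promoters, 250 bases before to 50 bases after an annotated start (RefSeq, GRCm38.p6), were read for 4 motifs on both strands. These were the PU box GAGGAA, recognised by the myeloid factor PU.1, the AP-1 motif TGANTCA, the C/EBP motif TTGCNNAA and an NF-kB motif of GGGA, any base, TT, any base and CC. The table held 8 promoters of 7 of the genes (Il1b, Tlr2, Pycard, Casp1, Il18, Myd88 and, with 2 starts, Nlrp3), and 4 of these 8 held at least 1 match. A PU box was in 3 of the 8 (Casp1, Pycard and 1 Nlrp3 start), against 28.3% of all 32851 promoters in the table. The NF-kB motif was in 1 of the 8, Tlr2, against 1.2% of all promoters, and the C/EBP motif in 1, Pycard, against 10.8%, while AP-1, found in 7.81% of all promoters, was in none. The promoters shown are of the gene with the largest fitted fall among the 9 tested (Casp1), the one with the most matches (Nlrp3), the one with the rarest motif (Tlr2) and the cytokine gene with the larger fall (Il1b), which held no match to these letters, with matches in capitals. Casp1 is on the plus strand at chr9:5298267-5298566, Nlrp3 on the plus strand at chr11:59542436-59542735, Tlr2 on the minus strand at chr3:83841559-83841858 and Il1b on the minus strand at chr2:129371090-129371389, each written 5′ to 3′ in the direction of transcription. The PU box of Casp1 lies on the opposite strand 108 bases before the start, those of Nlrp3 begin 220, 129 and 36 bases before it, the middle one on the opposite strand, and the NF-kB match of Tlr2 begins 172 bases before its start and reads the same on both strands. The starts shown for Nlrp3, Tlr2 and Il1b lie inside the annotated gene spans. The matches of Nlrp3 and Tlr2 thus fall within those spans and not upstream of them. The promoter at the outermost Nlrp3 start (chr11:59541319-59541618) held no match to these letters and is not shown. The matches shown do not overlap each other, and a match is a stretch of letters and no evidence of binding.
Casp1: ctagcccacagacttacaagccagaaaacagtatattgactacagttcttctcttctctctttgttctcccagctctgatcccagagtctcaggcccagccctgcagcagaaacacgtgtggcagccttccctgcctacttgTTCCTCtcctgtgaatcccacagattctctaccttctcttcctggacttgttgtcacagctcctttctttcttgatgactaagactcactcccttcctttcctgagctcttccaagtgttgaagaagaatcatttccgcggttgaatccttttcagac
Nlrp3: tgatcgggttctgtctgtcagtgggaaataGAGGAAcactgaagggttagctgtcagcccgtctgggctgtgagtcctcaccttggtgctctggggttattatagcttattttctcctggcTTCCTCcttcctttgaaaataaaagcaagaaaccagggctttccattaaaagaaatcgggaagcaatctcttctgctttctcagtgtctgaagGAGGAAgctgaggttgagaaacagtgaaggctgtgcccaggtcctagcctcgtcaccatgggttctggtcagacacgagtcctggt
Tlr2: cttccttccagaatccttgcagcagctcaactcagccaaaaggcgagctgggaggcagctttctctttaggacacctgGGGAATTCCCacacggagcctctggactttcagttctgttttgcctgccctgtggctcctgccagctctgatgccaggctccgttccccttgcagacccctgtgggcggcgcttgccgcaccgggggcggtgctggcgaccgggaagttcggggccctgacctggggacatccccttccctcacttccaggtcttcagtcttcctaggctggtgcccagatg
Il1b: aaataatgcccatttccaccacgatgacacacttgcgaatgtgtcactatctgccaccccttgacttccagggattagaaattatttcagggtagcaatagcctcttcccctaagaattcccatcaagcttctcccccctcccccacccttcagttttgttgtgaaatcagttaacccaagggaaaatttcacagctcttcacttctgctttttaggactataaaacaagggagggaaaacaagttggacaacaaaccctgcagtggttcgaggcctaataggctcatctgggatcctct

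The receptor genes all fell. Tlr2, the receptor for bacterial lipoproteins (chromosome 3, 83836272 to 83841824, minus strand, GRCm38.p6), was at 2.05, 2.22 and 2.49 FPKM in PR3_KO libraries 1, 2 and 3, against 4.12, 9.45 and 6.54 FPKM in WT libraries 1, 2 and 3. The PR3_KO libraries lay close together, while WT 2 stood well above WT 1. Tlr2 fell by 1.19 on the log2 scale (SE 0.24, limma adjusted p = 0.00513). Tlr4, the receptor for bacterial lipopolysaccharide (chromosome 4, 66827551 to 66846581, plus strand), was at 2.28, 3.00 and 3.07 FPKM in PR3_KO and at 6.74, 9.71 and 7.86 FPKM in WT. Its WT libraries were the least spread of the 3 receptors, with a coefficient of variation of 18.5%, and it fell by 1.26 (SE 0.15, limma adjusted p = 0.000938). Tlr7, an endosomal receptor for single-stranded RNA (chromosome X, 167303380 to 167330574, minus strand), had 2.38, 2.45 and 1.91 FPKM in PR3_KO libraries and 5.90, 9.90 and 8.64 FPKM in WT libraries. Tlr7 fell by 1.47 (SE 0.18, limma adjusted p = 0.000942), and the intervals of the 3 receptors overlapped, from -1.74 to -0.64 for Tlr2, -1.61 to -0.91 for Tlr4 and -1.88 to -1.06 for Tlr7.

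Myd88, the shared adaptor (chromosome 9, 119335934 to 119340018, minus strand), was the most abundant of the 10 genes in both genotypes. Its values were 9.94, 10.92 and 12.84 FPKM in PR3_KO and 19.92, 30.22 and 20.64 FPKM in WT. Myd88 fell by 0.99 (SE 0.17, limma adjusted p = 0.00268) and by 0.68 with median-of-ratios scaling (limma adjusted p = 0.00798). On the opposite strand, annotated exons of the peroxisomal thiolase gene Acaa1a cover 290 bases, 11.3% of the exonic bases of Myd88 in GENCODE M21. Acaa1a was at 81.81, 63.51 and 70.36 FPKM in PR3_KO, with 61.69, 54.86 and 52.06 FPKM in WT (log2 fold change 0.35, limma adjusted p = 0.0498), and this narrow call was lost in 9 of 14 alternative settings. How strand was used in counting is not stated in the sources used here, so reads of the shared stretch may be split between Myd88 and Acaa1a. Among the other members, an opposite-strand transcript shared 12.8% of the exonic bases of Pycard and 1.3% of those of Il1b, and no annotated exon of another gene overlapped those of the remaining 7.

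The inflammasome sensor, adaptor and protease genes were each lower, and the differences between their fold changes were not tested. Nlrp3, the sensor gene (chromosome 11, 59541569 to 59566955, plus strand), was at 0.14, 0.11 and 0.25 FPKM in PR3_KO, against 0.87, 1.93 and 0.99 FPKM in WT. These levels correspond to roughly 7 to 15 fragments per library in PR3_KO and 47 to 119 in WT, using its 4057 exonic bases and the rough depths above. The genotypes did not overlap, and an exact permutation test, two-sided with n = 3 per genotype, gave p = 0.1, the smallest value open to 3 against 3 libraries. With the filter lowered to a mean of 0.1 FPKM, where 36.7% of 15321 genes were called lower, Nlrp3 was at a log2 fold change of -0.93 (limma adjusted p = 0.00394). Pycard, encoding the adaptor ASC (chromosome 7, 127991373 to 127993867, minus strand), was at 4.08, 2.74 and 2.73 FPKM in PR3_KO and 5.77, 9.60 and 5.40 FPKM in WT. PR3_KO 1 came nearest to the WT libraries, and Pycard fell by 0.90 (SE 0.22, limma adjusted p = 0.0108), or by 0.59 without both WT 2 and PR3_KO 3 (limma adjusted p = 0.0215).

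Casp1, the gene of the inflammasome protease caspase-1 (chromosome 9, 5298517 to 5307281, plus strand), had the largest fitted fall of the 9 tested genes. Casp1 was at 1.18, 1.70 and 1.46 FPKM in PR3_KO libraries 1, 2 and 3, against 5.20, 13.33 and 8.80 FPKM in WT libraries 1, 2 and 3. The lowest WT library was still above all PR3_KO libraries by a wide margin, and the mean in PR3_KO was 15.9% of that in WT. Casp1 fell by 1.97 (SE 0.28, 95% interval -2.61 to -1.33, limma adjusted p = 0.00143) and by 1.72 with median-of-ratios scaling. Its rank as the largest fall depends on single libraries: without PR3_KO 3 the fold change was -1.98 for Casp1 and -2.27 for Il1b, without WT 3 it was -1.95 and -2.16, and without WT 2 and PR3_KO 3 it was -1.68 and -1.86. Casp1 was the fourth most abundant of the 10 genes in WT and the ninth in PR3_KO. Gsdmd, encoding the pore-forming substrate gasdermin D (chromosome 15, 75862144 to 75867408, plus strand), was at 6.17, 5.66 and 5.84 FPKM in PR3_KO and at 13.95, 31.66 and 16.12 FPKM in WT. The PR3_KO libraries were almost equal, with a coefficient of variation of 4.39% against 46.9% in WT, where WT 2 stood above the other libraries. Gsdmd fell by 1.56 (SE 0.27, limma adjusted p = 0.00285).

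The cytokine substrates of caspase-1 are given next, and the difference between their fold changes was not tested. Il1b, the gene of IL-1beta (chromosome 2, 129364569 to 129371164, minus strand), was at 2.32, 2.58 and 7.08 FPKM in PR3_KO libraries 1, 2 and 3, against 13.23, 28.31 and 9.99 FPKM in WT libraries 1, 2 and 3. PR3_KO 3 was well above the other PR3_KO libraries and close to WT 3. Il1b fell by 1.86 (SE 0.46, 95% interval -2.96 to -0.75, limma adjusted p = 0.0152), and the call was lost on leaving out PR3_KO 1 (-1.63, adjusted p = 0.0668) or PR3_KO 2 (-1.68, adjusted p = 0.0648). The summed FPKM of 14 neutrophil markers was 39.7, 32.2 and 407 in PR3_KO libraries 1, 2 and 3, against 175, 259 and 154 in WT 1, 2 and 3, so that PR3_KO 3 was the highest of all libraries. The neutrophil calprotectin gene S100a9 was at 17.12, 11.19 and 179.98 FPKM in PR3_KO and 77.75, 119.01 and 70.95 FPKM in WT. Neutrophils express Il1b, and the part of these transcripts in its value was not tested. Without both PR3_KO 3 and WT 2 the fold change of Il1b was again -1.86 (limma adjusted p = 5.4e-05). These were the highest libraries of their genotypes for Il1b. Leaving them out therefore narrowed the spread (SE 0.17 against 0.46), and the smaller p adds no support to the call.

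Il18, the gene of IL-18 (chromosome 9, 50554700 to 50581841, plus strand), which is also expressed in kidney epithelium, had the smallest fitted fall of the 9. It was at 3.53, 3.02 and 2.32 FPKM in PR3_KO and at 3.95, 4.90 and 5.75 FPKM in WT, with a narrow gap between PR3_KO 1 and WT 1. Il18 fell by 0.57 (SE 0.16, limma adjusted p = 0.0209), and was not past the threshold with median-of-ratios scaling (-0.31, limma adjusted p = 0.167). Leaving out PR3_KO 3 (-0.45, adjusted p = 0.0724 by limma), WT 3 (-0.46, adjusted p = 0.0666) or both PR3_KO 3 and WT 2 (-0.44, adjusted p = 0.0775) ended the call as well. WT 2, the highest WT library for the other 9 genes, was not the highest for Il18. Summed FPKM of 12 markers of the loop, distal tubule and collecting duct was 775 to 1180 in PR3_KO and 1260 to 1590 in WT. That of 13 proximal tubule markers was 50600 to 67600 in PR3_KO and 8420 to 24100 in WT. Most of the proximal tubule sum was Kap, at 40546.08 to 57589.99 FPKM in PR3_KO and 5247.64 to 18509.26 FPKM in WT. Of these 13 markers 11 were called higher (limma), against 11.7% of all genes, with a median fold change of 0.82. The part of tubular transcripts in the Il18 value was not tested.

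**Figure D2:**
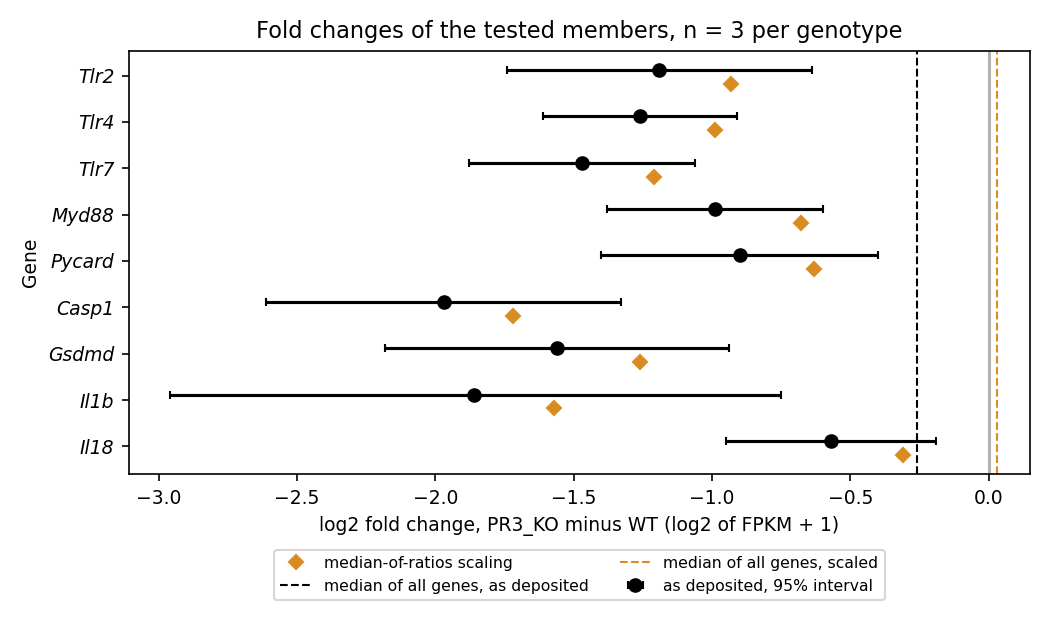
Log2 fold changes (PR3_KO minus WT, log2 of FPKM + 1, n = 3 per genotype) of the 9 tested genes as deposited, with 95% intervals in black, and after median-of-ratios scaling in orange, with dashed lines at the median of all genes under each. Casp1 is farthest left at -1.97, and Il18 at -0.57 is the one interval that reaches the median of all genes at -0.26.

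In the order of levels, Myd88 (11.2 ± 1.48 FPKM), Gsdmd (5.89 ± 0.259) and Il1b (3.99 ± 2.68) led in PR3_KO, and the same 3 led in WT at 23.6 ± 5.75, 20.6 ± 9.66 and 17.2 ± 9.78 FPKM (SD, n = 3 per genotype). In PR3_KO the gaps between Myd88 and Gsdmd, between Tlr7 and Casp1 and between Casp1 and Nlrp3 exceeded the spread of their libraries, while the neighbours from Gsdmd down to Tlr7 overlapped. Across the WT libraries each gene overlapped the next in the order, down to Il18 at 4.87 ± 0.90 FPKM, and Nlrp3 at 1.26 ± 0.58 FPKM lay apart below it. Summed over the 10 genes, FPKM was 34.1, 34.4 and 40.0 in PR3_KO libraries 1, 2 and 3, against 79.7, 149 and 90.7 in WT 1, 2 and 3. The coefficient of variation was larger in WT than in PR3_KO for 8 of the 10 genes, all but Il1b and Il18. WT 1 was the lowest WT library for 8 of the 10 genes.

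Macrophage markers were lower in PR3_KO too. Of 15 markers, 14 passed the filter and 14 of these fell, against 41.1% of all tested genes. Their median fold change was -2.78 (-2.50 with median-of-ratios scaling), and no marker was at 0 in any library. Without WT 2 and PR3_KO 3 the number that fell was 10 of 14, and the replicate block gave 13, against 31.9% and 41.5% of all genes. Their summed FPKM was 97.5 to 152 in PR3_KO and 677 to 1430 in WT. Lyz2, encoding lysozyme, was at 66.0 ± 19.0 FPKM in PR3_KO and 456 ± 149 FPKM in WT, and Ctss, encoding the lysosomal protease cathepsin S, at 12.2 ± 3.28 and 146 ± 62.0 FPKM (SD, n = 3 per genotype). Neutrophil markers were less uniform: of 11 tested, 0 fell and 1, Ly6g, rose (limma), against 41.1% and 11.7% of all genes. Ly6g was at 1.53, 1.18 and 2.58 FPKM in PR3_KO and 0.41, 0.76 and 0.40 FPKM in WT. Without the library PR3_KO 3, 9 of 9 tested fell, against 33.4% of all genes, and Ly6g was then under the filter and not tested. The neutrophil genes Mpo, Elane and Ctsg were at 0 in at least 1 library. For T and B cells, the summed FPKM of the 8 markers with values was 9.16 to 13.6 in PR3_KO and 11.7 to 19.6 in WT. All 10 endothelial markers fell, against 41.1% of all genes, with summed FPKM of 1230 to 1750 in PR3_KO and 2880 to 3570 in WT. With median-of-ratios scaling 9 of them fell, against 22.3% of all genes. Podocyte markers summed to lower values in PR3_KO, as given above, and the summed FPKM of 8 mesangial markers was 105 to 177 in PR3_KO and 190 to 312 in WT. Called lower were 5 of the 10 podocyte and 4 of the 8 mesangial markers, near the 41.1% of all genes. With median-of-ratios scaling it was 2 and 3, against 22.3%. The largest single parts of these sums were Podxl, at means of 200 FPKM in PR3_KO and 359 in WT, and Ren1, at 51.8 and 82.2 FPKM. The part of these cell types in the fall of the 10 genes was not tested.

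**Figure D3:**
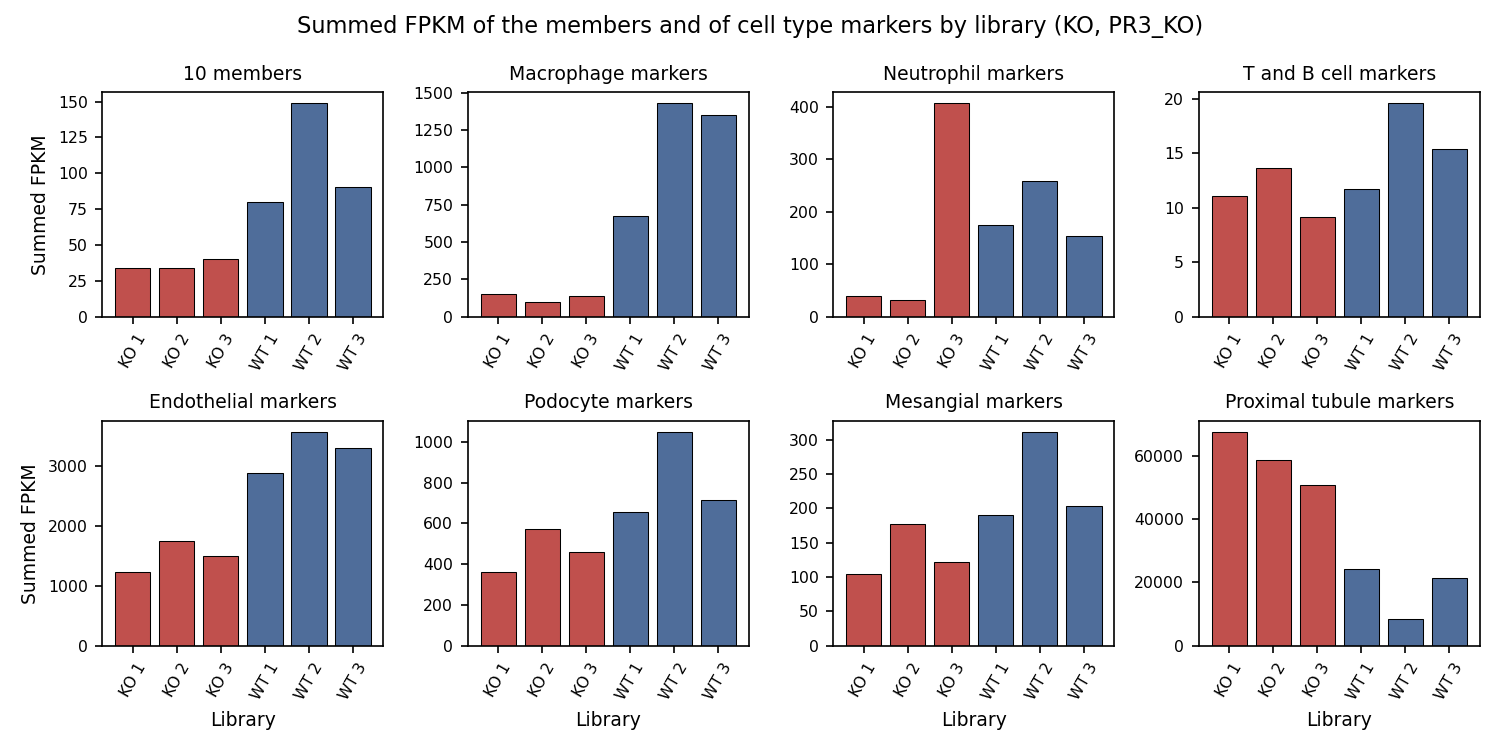
Summed FPKM per library (linear axes from 0) of the 10 genes and of markers of 7 cell types, PR3_KO libraries in red left of WT libraries in blue. Macrophage sums are 97.5 to 152 in PR3_KO and 677 to 1430 in WT. Proximal tubule sums, which are mostly Kap, run the other way, and the neutrophil sum of PR3_KO 3, 407, is above all other libraries.

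Beyond the 10 genes, 65 genes of the same pathways were read from the same fit, in 7 lists by role. Of the 48 past the filter, 32 fell, 2 rose and 14 did not pass the test (limma), with a median of -0.60, against 41.1% lower and a median of -0.26 over all genes. After median-of-ratios scaling 23 fell and 7 rose, against 22.3% and 25.4% of all genes, with a median of -0.36 against 0.03. The number that rose was 1 without any single library other than WT 3. Among the other Toll-like receptors, 4 of 5 tested fell and 0 rose, against 41.1% and 11.7% of all genes. The log2 fold changes were -1.95 for Tlr13, a receptor for bacterial ribosomal RNA, -1.70 for Tlr1, whose product pairs with TLR2 in binding lipopeptides, -1.46 for Tlr8, an endosomal relative of Tlr7, and -0.97 for Tlr3, the receptor for double-stranded RNA (limma adjusted p = 0.00175, 0.000982, 0.00114 and 0.00291). Tlr12, the receptor for protozoan profilin and named here after its values were seen, differed from them, at 7.93, 9.91 and 11.56 FPKM in PR3_KO and 9.71, 6.10 and 7.49 FPKM in WT (log2 fold change 0.31, limma adjusted p = 0.18). It was called higher after median-of-ratios scaling (0.60, adjusted p = 0.0326 by limma), where 4 of the 5 receptors fell. Tlr5, Tlr6, Tlr9 and Tlr11 lay below the filter.

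Among the accessory proteins of the receptors 6 of 8 genes fell and 0 rose, against 41.1% and 11.7% of all genes. After median-of-ratios scaling 5 of these fell and 0 rose, against 22.3% and 25.4%. Ly86, encoding MD-1, was at 3.05 ± 1.16 FPKM in PR3_KO and 26.5 ± 7.70 FPKM in WT (log2 fold change -2.76, SD over n = 3, limma adjusted p = 0.00074). Others were Cd180, encoding the receptor that MD-1 binds, at -2.23, Unc93b1, the chaperone that carries endosomal receptors such as TLR7 to their compartment, at -1.66, and Cd14, the lipopolysaccharide co-receptor, at -0.95 (log2 fold changes, limma adjusted p = 0.0023, 0.00113 and 0.00223). Ly96, encoding MD-2, the partner of TLR4 in binding lipopolysaccharide and named after its values were seen, did not separate the genotypes, at 9.36, 10.78 and 6.88 FPKM in PR3_KO and 8.64, 11.62 and 11.75 FPKM in WT (log2 fold change -0.23, limma adjusted p = 0.292).

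Among downstream adaptors, kinases and transcription factors 7 of 14 fell and 0 rose, with a median of -0.40, a share near the 41.1% called lower over all genes. After median-of-ratios scaling 2 of these fell and 3 rose, against 22.3% and 25.4% of all genes, so the direction of this list depends on the scaling, and without PR3_KO 1 the number that fell was 4. The transcription factor gene Irf5 fell by 1.08 (limma adjusted p = 0.00977). The kinase gene Map3k7 was at -0.41 and Tab2 and Tab3, encoding its binding partners, at -0.45 and -0.47 (log2 fold changes, limma adjusted p = 0.00922, 0.0112 and 0.00966). After median-of-ratios scaling none of these 3 passed (limma adjusted p = 0.375, 0.295 and 0.0751). Among negative regulators of the receptors, 3 of 4 tested fell and 1 rose, against 41.1% and 11.7% of all genes. The log2 fold changes were -0.99 for Irak3, a kinase-like inhibitor, -0.94 for Tnfaip3, a ubiquitin-editing enzyme that restrains NF-kappaB, and -0.27 for Tollip, an inhibitor of IRAK kinases (limma adjusted p = 0.00381, 0.0118 and 0.0332). After median-of-ratios scaling 2 of the 4 fell and 1 rose, against 22.3% and 25.4% of all genes. Tollip turned to 0.05 under that scaling (adjusted p = 0.646 by limma), and leaving out any 1 library ended its call (adjusted p = 0.0523 to 0.105). Sigirr, an inhibitory receptor of the IL-1 receptor family that epithelia express, rose, at 65.65, 56.01 and 57.39 FPKM in PR3_KO and 45.29, 37.60 and 51.26 FPKM in WT (log2 fold change 0.42, limma adjusted p = 0.032). The call of Sigirr was lost with library sums made equal (0.26, adjusted p = 0.0862 by limma) and without PR3_KO 1, PR3_KO 2, PR3_KO 3, WT 1, WT 2 or both WT 2 and PR3_KO 3 (0.30 to 0.46, adjusted p = 0.0535 to 0.107).

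Of the other inflammasome sensors 3 of 4 tested fell and 1 rose, against 41.1% and 11.7% of all genes. In this list 7 of the 11 lay below the filter. Naip2 and Naip5, sensors of bacterial secretion systems and flagellin with near-identical paralogs, so that their values are uncertain, were at -1.14 and -1.04, and Aim2, the sensor of cytosolic DNA, at -1.10 (log2 fold changes, limma adjusted p = 0.00421, 0.00176 and 0.00217). Nlrp6, a sensor known from epithelium, rose in PR3_KO, at 24.72, 24.88 and 29.46 FPKM against 19.86, 10.95 and 15.15 FPKM in WT (log2 fold change 0.78, SE 0.19, limma adjusted p = 0.0119). Its call held in all 14 alternatives. After median-of-ratios scaling 3 of the 4 sensors fell and 1 rose, against 22.3% and 25.4% of all genes. In FPKM, a level per length, Nlrp6 was thus far above Nlrp3 in every library, and it was higher in PR3_KO while Nlrp3 was lower. The summed proximal tubule markers, a sum that is mostly Kap, were also higher in PR3_KO, at 50600 to 67600 FPKM against 8420 to 24100 FPKM in WT. Of the 13 markers 11 were called higher (limma), against 11.7% of all genes. The part of proximal tubule transcripts in the values of Nlrp6 and Sigirr was not tested. Among the partners of the inflammasome 5 of 7 fell and 0 rose, against 41.1% and 11.7% of all genes. After median-of-ratios scaling 4 of these fell and 1 rose, against 22.3% and 25.4%. P2rx7, the ATP-gated channel that triggers NLRP3, was at 3.54 ± 0.0833 FPKM in PR3_KO and 8.02 ± 0.955 FPKM in WT (log2 fold change -0.98, SD over n = 3, limma adjusted p = 0.00084). The log2 fold changes were -0.72 for Nek7, which binds NLRP3, -0.63 for Casp8, a protease of cell death signalling, and -1.49 for Casp4, encoding caspase-11, which senses intracellular lipopolysaccharide (limma adjusted p = 0.00137, 0.00176 and 0.00375).

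In the IL-1 family and its receptors 4 of 6 tested genes fell and 0 rose, against 41.1% and 11.7% of all genes. After median-of-ratios scaling 3 of these fell and 0 rose, against 22.3% and 25.4%. Il1rn, the IL-1 receptor antagonist that opposes Il1b, was at 0.29, 0.08 and 0.14 FPKM in PR3_KO, against 2.02, 3.92 and 1.94 FPKM in WT (log2 fold change -1.59, limma adjusted p = 0.00118). The agonist Il1b and the antagonist were thus both lower in PR3_KO. Il1r1, the signalling receptor, was at -1.08, Il33, a cytokine of stromal and endothelial cells, at -0.65 and Il1rap, the receptor's accessory chain, at -0.37 (log2 fold changes, limma adjusted p = 0.00123, 0.0117 and 0.0424). Il1rap was at -0.13 after median-of-ratios scaling (adjusted p = 0.355 by limma), and leaving out any 1 library ended its call (adjusted p = 0.0506 to 0.14). Il18bp, the secreted inhibitor of IL-18, named after its values were seen, was at 3.71, 3.90 and 3.11 FPKM in PR3_KO and at 5.56, 35.03 and 6.52 FPKM in WT, where WT 2 stood far above the rest (log2 fold change -1.41, SE 0.63, limma adjusted p = 0.104). A call of lower was made without WT 2 (-0.62, adjusted p = 0.00595 by limma) and without WT 1 (-1.85, adjusted p = 0.0475).

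**Figure D4:**
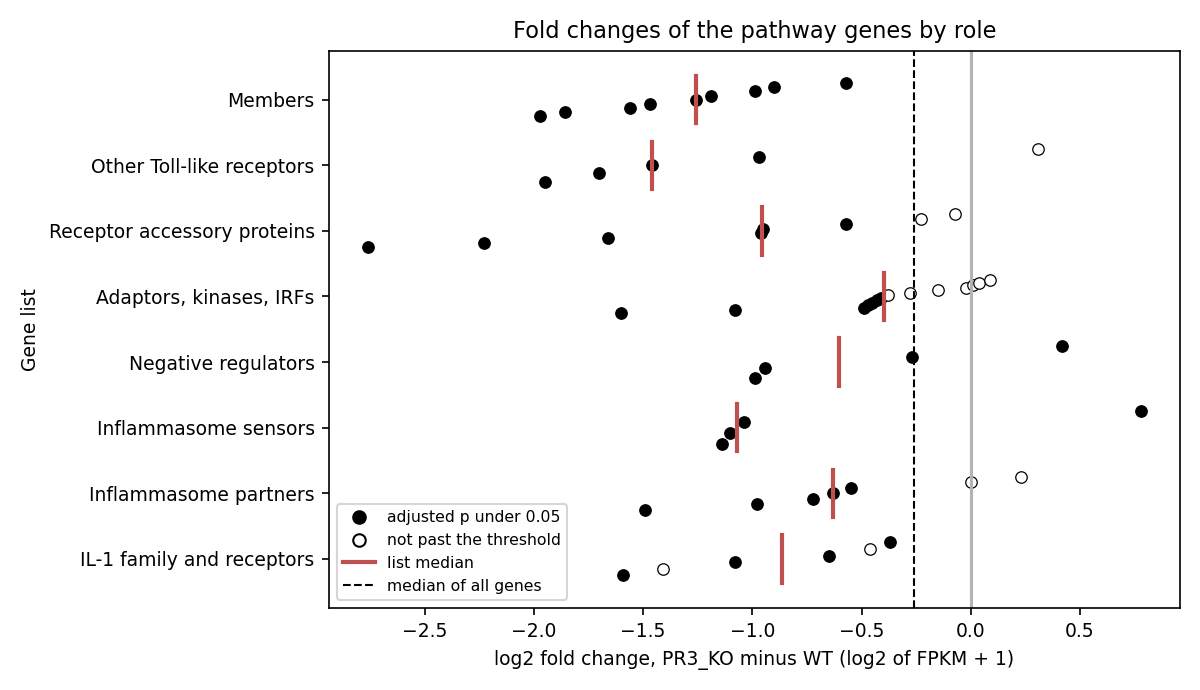
Log2 fold changes (PR3_KO minus WT, log2 of FPKM + 1) of the tested genes as deposited, by role, 1 point per gene, filled where the limma adjusted p was under 0.05, with list medians in red and the median of all genes, -0.26, as a dashed line. The medians run from -1.46 for the other Toll-like receptors to -0.40 for adaptors, kinases and interferon regulatory factors (IRFs), and 2 filled points, Sigirr and Nlrp6, lie right of 0.

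The genes whose profile over the 6 libraries was most like those of the 3 tested members with the largest fitted falls were found by the root-mean-square difference of centred log2(FPKM + 1), as a description. For Casp1 these were Slfn2 (0.13), Cyrib (0.14) and Cd53 (0.14). For Il1b they were Gm9733 (0.17), Sirpb1c (0.26) and Alox5ap (0.26), all of them higher in PR3_KO 3 than in PR3_KO 1 and 2, and for Gsdmd they were Spn (0.08), Trem3 (0.08) and Itgax (0.08). Alox5ap, for example, was at 5.97, 7.48 and 15.47 FPKM in PR3_KO libraries 1, 2 and 3, against 23.79, 43.45 and 27.60 FPKM in WT libraries 1, 2 and 3. These likenesses are over 6 libraries that share the same genotype difference. The added 1 shrinks the differences of low genes such as Trem3, at means of 0.21 FPKM in PR3_KO and 2.59 FPKM in WT.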

How the data were processed

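Per the labels' protocols, Trizol was used for extraction and oligo(dT) beads for purification, and libraries ran on the DNBSEQ platform. The submitters' processing notes name Bowtie2 and the build GRCm38.p6. Its version, the quantification tool, strand handling, annotation and filters are not stated in the sources used here. The authors deposited FPKM, rounded to 2 decimals, for 22064 Entrez IDs, of which 3242 were empty in all 6 files, per the file headers and values. Symbols came from RefSeq (GRCm38.p6) and matched 18770 of 18822 IDs; exon overlaps came from GENCODE M21.

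R 4.3.3 was used with limma 3.58.1 and statmod 1.5.0, and the model was fitted to log2(FPKM + 1) with genotype as the only term, an intensity trend and robust moderation, after testing on simulated data. Genes under a mean of 1 FPKM were compared by an exact permutation test. Other steps used scipy 1.17.1, numpy 2.4.6, matplotlib 3.10.9 and pandas 2.3.3 under Python 3.11.15. The 10 genes, the lists and the tests were chosen with earlier results of these data known. The text names all 10 genes, up to 4 genes per pathway list by smallest adjusted p, the most abundant markers and the 3 nearest profiles for 3 members; others are marked. Alternatives covered pseudocount, filter, scaling, moderation, a replicate block and left-out libraries. The precision of low values is limited by a depth known only roughly.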

Additional observations from a re-analysis of the deposited data

How the results depend on the processing

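Of 14 alternatives, 7 of the 9 tested genes kept their direction and call in every one, with the fold change of Casp1 between -2.49 and -1.68 and that of Tlr4 between -1.52 and -0.99. Il1b kept its call in 11 and Il18 in 10, and no fold change turned sign. The number of the 10 genes called lower was 8 to 9 with single libraries left out, against 31.1% to 38.3% of all genes. It was 8 without WT 2 and PR3_KO 3, against 31.9%. With the filter at 0.1 FPKM or absent, which admits Nlrp3, it was 10, against 36.7% and 30.4%. Over all genes 3149 were higher and 2767 lower with median-of-ratios scaling, against 1454 and 5091 as deposited, and 897 were higher with library sums made equal. The number higher was 916 to 1518 with single libraries left out, lowest without PR3_KO 1 and at 936 without PR3_KO 3. Of the 48 other pathway genes tested, 7 were higher with median-of-ratios scaling, against 25.4% of all genes, and 1 with equal library sums, against 7.24%. With single libraries left out, 46 to 49 were tested and 1 to 2 were higher, against 7.35% to 12.3% of all genes. Without WT 2 and PR3_KO 3 it was 1 of 47, against 8.2%. Tollip turned to 0.05 with median-of-ratios scaling. The cause was not tested. The replicate numbers are only labels: same-numbered libraries deviated together with correlations of 0.07, 0.27 and -0.09, and 3 of 6 libraries correlated best with their own number. With the replicate number as a block 1550 genes were higher and 5143 lower, and 8 of the members were lower, against 41.5% of all genes. In that fit Il1b and Irf5 did not pass (-1.86 and -1.08, limma adjusted p = 0.0982 and 0.058). Fold changes of genes near 1 FPKM depend on the pseudocount, as with Casp1 (-2.49 at 0.1).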
